A study of Homo sapiens with 9 samples.

Results

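Solute carriers (SLC) are the membrane proteins that move amino acids, sugars, nucleotides, metal ions and other small molecules across cellular membranes, and their mRNAs are described here in RNA that came down with either of 2 axon guidance receptors. The mRNAs were chosen by name and count: every gene symbol made of SLC, a family number, a letter and a member number that held at least 10 raw counts in at least 6 of the 9 libraries. This left 89 mRNAs of the 364 solute carrier symbols in the count files, which list 42785 genes, and they fell into 36 families. The count files held 15 of 48 mitochondrial carriers (SLC25), 12 of 29 carriers of the nucleotide sugar type (SLC35) and 62 of 287 symbols of the other families at this depth. Because the counts themselves chose the mRNAs, how often each one was detected is given as a description and supports nothing.

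All libraries came from SH-SY5Y cells, a human neuroblastoma line with neuron-like properties, grown in serum-supplemented high-glucose DMEM. In the DCC-IP group, cell lysate was incubated with magnetic beads carrying a mouse antibody to DCC, the receptor for netrin-1. In the Nrp1-IP group, the beads carried a rabbit antibody to Nrp1 (neuropilin-1), the receptor for semaphorin 3A. The Input group is the cell RNA without a pulldown, and each group has 3 libraries made after PCR amplification of the cDNA. The comparisons ask which mRNAs associate with each receptor. Both pulldowns used 1 cell line, the labels name no guidance cue treatment, and no control-antibody library is among those analysed. By the paper's account, RNA came down with each receptor antibody and not with control IgG, and ribosomal RNA was enriched over IgG by qPCR. Those checks gave no reading per solute carrier mRNA. For single mRNAs, binding to beads or antibody thus cannot be told apart from association with the receptor. The study's methods describe its experiments in general as independent biological replicates, the labels name no culture for a library, and p-values measure the spread between these libraries.

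SLC25 proteins sit for the most part in the inner mitochondrial membrane, where they exchange nucleotides, phosphate, amino acids, metals and cofactors between cytosol and matrix. SLC35 proteins belong to the Golgi and endoplasmic reticulum for the larger part and bring nucleotide sugars into the lumen for glycosylation, although the substrates of subfamily F are less well defined. The SLC30 family exports zinc from the cytosol into organelles or out of the cell, and the SLC39 family brings zinc into the cytosol. In neurons, SLC6, SLC18 and SLC38 members handle transmitters and their precursors, and SLC12 members set the chloride gradient on which GABA responses depend.

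The libraries held 8838296 to 11055895 counts on genes. The mRNA of MAP1B, a microtubule-associated protein of growing axons, took 40.3 to 52.1% of the gene counts in DCC-IP, 1.58 to 2.44% in Nrp1-IP and 1.87 to 2.25% in Input, so shares are given below with and without it. Between 6652 and 12240 genes had at least 1 count. The DCC mRNA had 0 counts in all 9 libraries, where 3 counts would be 0.271 to 0.339 CPM, a library's counts scaled to its total. The NRP1 mRNA had 0 to 83 counts in the pulldowns and 198 to 320 in Input. Of 13 noradrenergic neuroblastoma markers, 12 exceeded 3 counts in a library and TH was at 0. Their summed share was 0.182 to 0.331% in DCC-IP, 0.118 to 0.151% in Nrp1-IP and 0.0231 to 0.0434% in Input, most of it ISL1, which was called higher in both pulldowns than in Input. With ISL1 included, of the 7 tested in DCC-IP over Input 3 were above 0 and 4 below (median log2 fold change -0.90), and of the 8 tested in Nrp1-IP over Input 2 were above and 6 below (median -0.92). The part of these differences in the results below was not tested. Of 9 mesenchymal markers, PRRX1, SNAI2, COL1A2 and COL3A1 were at 0, and the list reached at most 0.00965% of gene counts. The other 5, VIM, FN1, COL1A1, TAGLN and CD44, exceeded 3 counts in a library and could be uneven. In Input, VIM had 1, 912 and 75 counts and CD44 had 1, 0 and 183, and the list's share ranged from 0.000309 to 0.00965%.

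Detection of the carriers was uneven. Of the 89 mRNAs, 44 had at least 10 counts in all 9 libraries and 13 only just met the rule, with 10 counts in exactly 6. At least 10 counts were present in all 3 libraries of a group for 74 mRNAs of Input, 54 of DCC-IP and 78 of Nrp1-IP. SLC35F1, SLC43A2, SLC29A3 and SLC2A6 stayed under 10 counts in each DCC-IP library, whereas SLC3A2 alone did so in Input. Another 148 symbols had some counts without meeting the rule and 127 had none in any library. Just inside the rule were SLC2A1, SLC3A2, SLC35F1, SLC25A53, SLC8A1, SLC43A2, SLC35E3, SLC10A1, SLC39A3, SLC16A14, SLC29A3, SLC2A6 and SLC27A1, the last with 83 counts over all libraries. Just outside, with 10 counts in 5 libraries, were SLC43A1 (423 counts in all), SLC25A3 (375 counts), SLC39A1 (364 counts), SLC38A1 (288 counts), SLC25A5 (158 counts), SLC2A10 (123 counts), SLC7A6 (95 counts) and SLC7A14 (84 counts).

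Many of the best-known carriers had few counts in these libraries. Of 36 textbook carriers, 13 met the rule and 23 did not. SLC25A3, the mitochondrial phosphate carrier, had 0, 70 and 19 counts in Input, 213, 0 and 53 after DCC pulldown and 17, 0 and 3 after Nrp1 pulldown. SLC25A5, an ADP/ATP exchanger, had 57, 55 and 23 counts in Input, 0, 0 and 10 after DCC pulldown and 0, 0 and 13 after Nrp1 pulldown. Its relative SLC25A6 and the glucose transporter SLC2A3 had 0 counts in all 9 libraries, and the amino acid exchangers SLC7A5 and SLC7A11 had 67 and 11 counts in total. Reads without a unique alignment, 2.83 to 3.83% per library, were not counted on genes. A count of 0 thus need not mean that an mRNA was absent. Transcript lengths were not available, so counts are compared between libraries and not between genes.

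Solute carrier mRNAs took a smaller share of the DCC-IP libraries and a larger share of the Nrp1-IP libraries than of Input. The 89 mRNAs together held 0.664, 0.570 and 1.58% of gene counts in DCC-IP (0.936 ± 0.555%, mean ± SD, n = 3). They held 2.71, 3.33 and 3.18% in Nrp1-IP (3.07 ± 0.326%, n = 3) and 1.96, 1.89 and 1.88% in Input (1.91 ± 0.0444%, n = 3). The 3 groups did not overlap. Such shares add up to a whole, so a lower share of 1 mRNA and a higher share of the rest cannot be told apart. With MAP1B left out of the total, the shares were 2.0, 1.93 and 1.91% in Input, 1.32, 1.19 and 2.64% after DCC pulldown and 2.77, 3.41 and 3.23% after Nrp1 pulldown, and DCC-IP replicate 3 then lay above Input. That library owed 60.3% of its carrier counts to SLC38A2 alone.

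**Figure D1:**
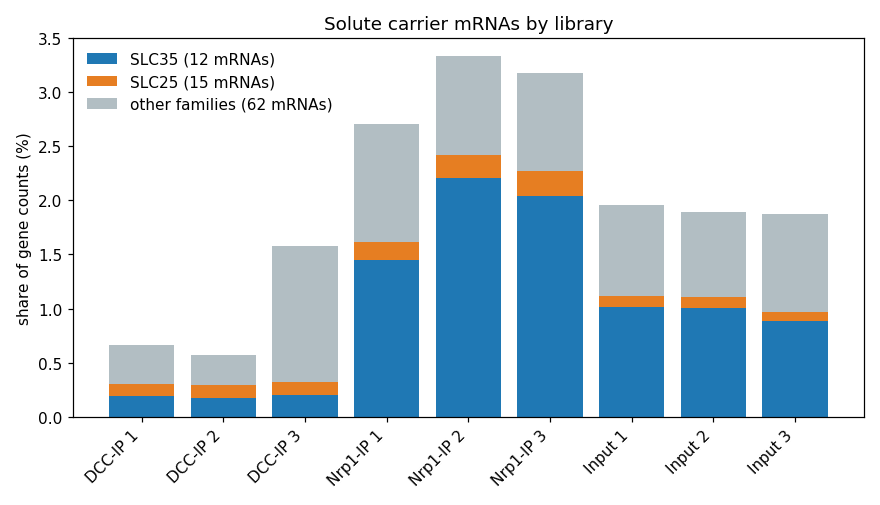
Share of gene counts on solute carrier mRNAs in each library, as stacked bars in percent, with the SLC35, SLC25 and other families shown separately. The SLC35 part lies between 1.44 and 2.21% in Nrp1-IP and between 0.172 and 0.200% in DCC-IP, and the third DCC-IP bar is raised by the other families.

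A few mRNAs carried most of these counts. SLC35F6 and SLC35F2 together held 52.5 to 65.2% of all carrier counts in Nrp1-IP and 46.1 to 51.9% in Input, against 11.7 to 27.7% in DCC-IP. SLC35 mRNAs as a class held 0.172 to 0.200% of gene counts in DCC-IP, 1.44 to 2.21% in Nrp1-IP and 0.884 to 1.01% in Input. SLC25 mRNAs held 0.117 to 0.120% in DCC-IP, 0.172 to 0.230% in Nrp1-IP and 0.0875 to 0.105% in Input, so their sum lay wholly above Input in both pulldowns. A single mRNA, SLC25A37, made up 60.6 to 81.4% of this sum in DCC-IP, 63.9 to 66.1% in Nrp1-IP and 32.8 to 47.1% in Input. The sum therefore does not describe the other SLC25 mRNAs. The other families held 0.281 to 1.26%, 0.906 to 1.09% and 0.779 to 0.906%. With MAP1B left out of the total, the SLC25 shares were 0.201 to 0.245%, 0.177 to 0.234% and 0.0892 to 0.108% in the same order. The DCC-IP and Nrp1-IP ranges of SLC25 then overlapped, and both still lay above Input. The SLC35 shares were then 0.335 to 0.372%, 1.48 to 2.26% and 0.901 to 1.04%. The DCC-IP range of the other families covered those of both other groups with or without MAP1B. SLC35F6, SLC35F2 and SLC38A2 were then removed, a choice made after seeing the data. The mean shares of all gene counts, MAP1B included, were 0.959% for Input, 0.433% for DCC-IP and 1.19% for Nrp1-IP. These 3 groups still did not overlap, including after MAP1B was left out (0.928 to 1.02%, 0.739 to 0.913% and 1.15 to 1.31%).

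To ask which carriers were depleted or enriched with DCC, counts were compared between DCC-IP and Input across all 6223 genes tested. In DCC-IP, 9 carriers were lower and none was higher. The lower mRNAs were SLC35F6, SLC35F2 and SLC35F1 of the nucleotide sugar type, the zinc carriers SLC39A9, SLC39A11 and SLC30A7, the heme carrier SLC48A1, the magnesium carrier SLC41A2 and the sodium-potassium-chloride cotransporter SLC12A2. By edgeR's quasi-likelihood test with a Benjamini-Hochberg adjusted p under 0.05, 9 of the 89 carriers passed as lower, beside 3.52% of all genes tested and 4.23% of all genes that met the same count rule. None passed as higher (background 1.46% and 1.76%). At an unadjusted p under 0.05, 9 of the 89 carriers were higher and 24 lower, beside 674 and 693 of all 6223 genes. DESeq2 called 9 higher and 19 lower (8.21% and 8.37% of all genes). SLC35F1 met the count rule only through Input and Nrp1-IP and so had to differ from DCC-IP, and its call is given as a description. Of the 44 carriers with at least 10 counts in all 9 libraries, the other 8 were called lower. The DCC-IP libraries lay wholly below Input for 31 carriers and wholly above for 12, against 18.1% and 15.2% of all genes. SLC43A2, SLC29A3 and SLC2A6 are among the 31 and SLC3A2 among the 12, and SLC43A2 and SLC3A2 are among the DESeq2 calls. SLC3A2 met the count rule only outside Input and the others only outside DCC-IP, so the rule helped to choose these differences.

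Deviations from the group means correlated at 0.117, 0.187 and 0.421 between DCC-IP and Input libraries of replicate number 1, 2 and 3. DCC-IP replicate 2 and Input replicate 1 correlated at 0.136, so only replicate 3 stood clearly apart and a pairing is not established. With the replicate number as a block, 20 carriers were lower and 2 were higher, beside 7.67% and 3.82% of all genes. All 9 mRNAs above were among them. The further lower ones were SLC25A45, SLC25A51, SLC35F5, SLC16A1, SLC18A2, SLC29A4, SLC30A4, SLC30A5, SLC39A10, SLC4A5 and SLC44A1, and the higher ones were SLC38A2 and SLC25A34. Leaving out the MAP1B counts kept 2 calls, SLC35F6 (adjusted p = 0.0307) and SLC35F1, where 0.788% of all genes were called lower. The log2 fold changes of the other 7 were then -2.57 for SLC39A9, -2.64 for SLC39A11, -2.07 for SLC30A7, -1.83 for SLC35F2, -2.77 for SLC41A2, -2.11 for SLC48A1 and -1.52 for SLC12A2, with adjusted p from 0.0576 to 0.115. Leaving out DCC-IP replicate 1 or DCC-IP replicate 2 left no carrier called, with 0 and 1 genes called in all. Without DCC-IP replicate 3 there were 3 lower carriers and 1 higher, where 206 of all 6975 genes were called. Without Input replicates 1, 2 and 3 there were 1, 3 and 10 lower carriers. The genes called in all were then 31 of 7725, 96 of 7222 and 250 of 7141, so the carrier calls rose with the calls over all genes.

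SLC35F6 had the smallest adjusted p among the carriers. This multipass membrane protein belongs to subfamily F of the nucleotide sugar type. It had 79568, 77144 and 50199 counts in Input, 10084, 10689 and 9607 after DCC pulldown and 104032, 167148 and 154048 after Nrp1 pulldown. Every DCC-IP library lay far below every library of the other groups. In CPM scaled by TMM, Input averaged 8591 ± 2047, DCC-IP 887 ± 240 and Nrp1-IP 12228 ± 2891 (SD, n = 3). Relative to Input, the DCC-IP log2 fold change was -3.18 (SE 0.31, adjusted p = 0.00513), and it passed in 4 of the 6 fits that left out 1 library.

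SLC35F2, a transporter known for taking up the drug sepantronium bromide, had 6875, 6800 and 9540 counts in DCC-IP. In Input it had 25302, 21324 and 26274 counts, and after Nrp1 pulldown 33917, 51606 and 66602. The DCC-IP libraries again lay wholly below Input, with a log2 fold change of -2.08 (SE 0.30, adjusted p = 0.00884). SLC35F1, whose substrate is unsettled, had 0 counts in all 3 DCC-IP libraries, against 147, 114 and 69 counts in Input and 88, 108 and 108 after Nrp1 pulldown. Against a floor of 3 counts per library, it was at least 52.4-fold lower in DCC-IP than in Input, a difference that the count rule helped to choose. SLC35F5, the other subfamily F mRNA that met the count rule, had 1041, 500 and 470 counts in DCC-IP against 2204, 1677 and 926 in Input, and its groups overlapped in CPM. Its log2 fold change was -1.64 (SE 0.58, adjusted p = 0.138), with an adjusted p of 0.0214 under the replicate block. SLC35F4 and SLC35F3 did not meet the rule, with 28 and 7 counts in all, and SLC35F4 had 1, 6 and 12 of them in DCC-IP.

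**Figure D2:**
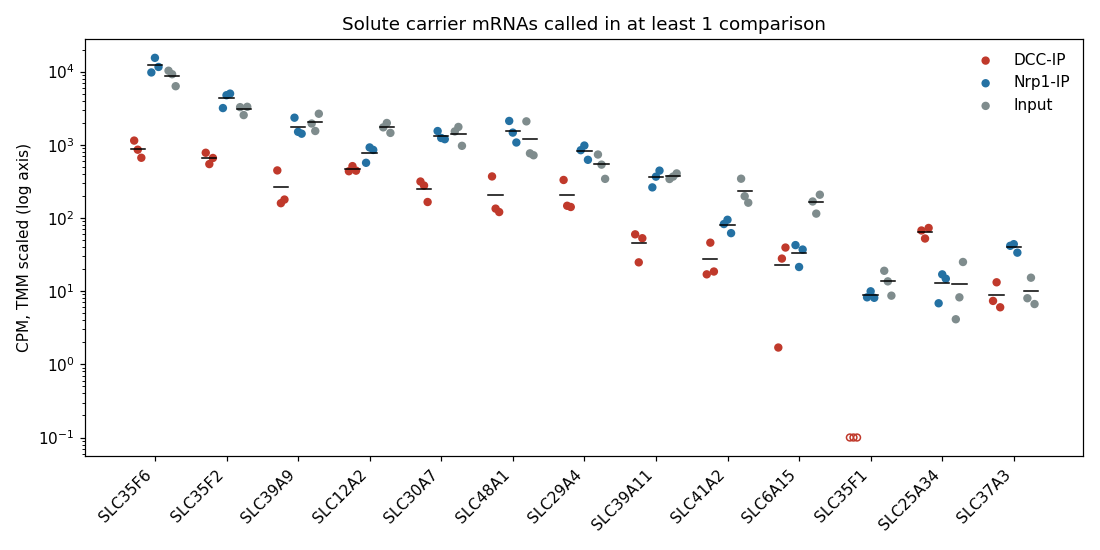
CPM on a log axis in each library for the 13 solute carrier mRNAs called in at least 1 comparison, with a line at each group mean. Open circles drawn at 0.1 CPM stand for 0 counts, which only SLC35F1 in DCC-IP shows, and for the mRNAs lower in DCC-IP the DCC-IP points lie below the Input points without overlap.

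Of the 15 carriers of metal ions, 5 were lower in DCC-IP along with the SLC35F mRNAs. SLC39A9 (ZIP9), a zinc importer, had 15110, 12931 and 21106 counts in Input, 3944, 1987 and 2580 after DCC pulldown and 25053, 16312 and 18866 after Nrp1 pulldown. DCC-IP was lower than Input by a log2 fold change of -2.93 (SE 0.43, adjusted p = 0.00884). SLC39A11 (ZIP11) had 2639, 3082 and 3231 counts in Input, 528, 309 and 764 after DCC pulldown and 2797, 3979 and 5903 after Nrp1 pulldown. Both zinc importers thus had DCC-IP libraries well below those of either other group, and SLC39A11 differed from Input by -2.92 on the log2 scale (SE 0.48, adjusted p = 0.0134). SLC30A7 (ZnT7), which loads zinc into the Golgi, had 11796, 14684 and 7692 counts in Input, 2782, 3462 and 2388 after DCC pulldown and 16464, 13437 and 15871 after Nrp1 pulldown. Its log2 fold change was -2.39 (SE 0.39, adjusted p = 0.0127).

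SLC48A1 (HRG1), which moves heme out of endosomes and lysosomes, had 16180, 6401 and 5716 counts in Input, 3264, 1675 and 1741 after DCC pulldown and 22612, 15911 and 14301 after Nrp1 pulldown. Input replicate 1 was well above the other Input libraries, but none reached down to the DCC-IP values, and the fitted difference was a log2 fold change of -2.48 (SE 0.56, adjusted p = 0.0406). SLC41A2, a magnesium carrier, had 2664, 1661 and 1285 counts in Input, 150, 574 and 268 after DCC pulldown and 883, 1025 and 826 after Nrp1 pulldown. This is the 1 metal carrier whose 3 groups were ordered without overlap from DCC-IP through Nrp1-IP to Input, and DCC-IP differed from Input by -2.94 on the log2 scale (SE 0.64, adjusted p = 0.0378). SLC12A2 (NKCC1), which loads immature neurons with chloride, had 13398, 16631 and 11550 counts in Input, 3845, 6379 and 6403 after DCC pulldown and 6061, 9980 and 11321 after Nrp1 pulldown. Its groups followed the same order, with a log2 fold change of -1.75 (SE 0.33, adjusted p = 0.0236).

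Of the 9 calls, SLC35F6 passed in 4 of 6 fits that left out a library, SLC35F2, SLC35F1 and SLC39A9 in 2, and SLC39A11, SLC30A7, SLC48A1, SLC41A2 and SLC12A2 in 1. SLC30A7 overlaps DPH5 in the RefSeq gene list, and SLC48A1 overlaps HDAC7 and RAPGEF3. The strand setting of the counting is not given in the sources used here, so the reads of such neighbours may not be told apart, whereas SLC35F6, SLC35F2, SLC39A9 and SLC41A2 overlap no other listed gene.

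The receptor pulldowns were next compared with each other. Among 6439 genes tested, 8 carriers were higher in Nrp1-IP than in DCC-IP and 1 was lower. Of the 8, 7 were mRNAs that were also lower in DCC-IP than in Input, namely SLC35F6, SLC35F2, SLC35F1, SLC39A9, SLC39A11, SLC30A7 and SLC48A1, and both comparisons use the same DCC-IP libraries. The other one was SLC29A4, the plasma membrane monoamine transporter, and the one that was lower was the mitochondrial carrier SLC25A34. Of the 44 carriers with at least 10 counts in all 9 libraries, 7 were called higher, which leaves out SLC35F1. Of all genes, 2.56% were called higher and 1.09% lower, and of the genes meeting the count rule 3.23% and 1.32%. DESeq2 called 13 carriers higher and 2 lower (5.99% and 4.81% of all genes). The Nrp1-IP libraries lay wholly above DCC-IP for 26 carriers and wholly below for 6, beside 15.6% and 10.9% of all genes. The 26 include SLC35F1, SLC43A2, SLC29A3 and SLC2A6, which met the count rule only outside DCC-IP.

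SLC35F6 was higher in Nrp1-IP by 3.64 on the log2 scale (SE 0.33, adjusted p = 0.00132) and SLC35F2 by 2.57 (SE 0.30, adjusted p = 0.00255). Both passed in all 6 fits that left out 1 library, as did SLC39A11, at 2.85 (SE 0.44, adjusted p = 0.00772). SLC35F1 was at least 33.4-fold higher in Nrp1-IP than the floor in DCC-IP, again as a description. The log2 fold change was 2.64 for SLC39A9 (SE 0.43, adjusted p = 0.0105), 2.23 for SLC30A7 (SE 0.36, adjusted p = 0.0101) and 2.79 for SLC48A1 (SE 0.48, adjusted p = 0.0134). These passed in 5, 4 and 3 of the 6 fits. Without Nrp1-IP replicate 1, 3 carriers remained higher (SLC35F6, SLC35F2 and SLC39A11), and without Nrp1-IP replicate 2 these and SLC39A9 did. The genes called in all were then 74 of 7590 and 77 of 7627.

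SLC29A4 had 5701, 4486 and 2721 counts in Input, 2921, 1832 and 2041 after DCC pulldown and 9018, 10593 and 8296 after Nrp1 pulldown. The DCC-IP libraries were the lowest and Nrp1-IP overlapped Input in CPM. Nrp1-IP exceeded DCC-IP by 1.87 on the log2 scale (SE 0.40, adjusted p = 0.0371), with 2 of 6 fits passing. In DCC-IP over Input it was -1.33 (SE 0.44, adjusted p = 0.118), or -1.31 with an adjusted p of 0.0189 under the block. The gene overlaps TNRC18 in the RefSeq list.

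Nrp1-IP and Input differed for few carriers. Among 6501 genes tested, SLC37A3 was higher in Nrp1-IP and SLC6A15 was lower, beside 1.94% and 3.03% of all genes and 2.46% and 3.71% of those meeting the count rule. DESeq2 called 5 carriers higher and 8 lower there (5.75% and 9.04% of all genes). The Nrp1-IP libraries lay wholly above Input for 10 carriers and wholly below for 11, against 17.7% and 13.8% of all genes. The 10 include SLC3A2, which met the count rule only outside Input. SLC37A3, a member of the sugar-phosphate family, had 445, 476 and 447 counts in Nrp1-IP, 62, 128 and 53 in Input and 65, 165 and 87 in DCC-IP. It was thus higher in Nrp1-IP than in every library of both other groups. Over Input it was higher by 2.11 on the log2 scale (SE 0.44, adjusted p = 0.0382), a call that was lost in each of the 6 fits without 1 library, and over DCC-IP it was 1.96 (SE 0.64, adjusted p = 0.147).

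SLC6A15, a transporter of branched-chain amino acids and proline in neurons, had 1301, 961 and 1653 counts in Input and 455, 232 and 493 after Nrp1 pulldown. In DCC-IP it had 15, 348 and 570 counts, a wide spread that overlapped Nrp1-IP but stayed below Input. The log2 fold change in Nrp1-IP over Input was -2.23 (SE 0.45, adjusted p = 0.0344) and passed in 2 of 6 fits, and that in DCC-IP over Input was -2.56 (SE 1.0, adjusted p = 0.175). No carrier remained called in Nrp1-IP over Input without Input replicate 1 or without any 1 of the Nrp1-IP libraries, where 0 to 77 genes were called in all. The mRNAs that stood out in the other comparisons did not pass here, with log2 fold changes of 0.59 for SLC35F6 (SE 0.27, adjusted p = 0.251), 0.57 for SLC35F2 (SE 0.28, adjusted p = 0.295), -0.17 for SLC39A9 (SE 0.35, adjusted p = 0.84) and 0.44 for SLC48A1 (SE 0.49, adjusted p = 0.672). SLC12A2 at -1.06 (SE 0.27, adjusted p = 0.0649) and SLC41A2 at -1.49 (SE 0.40, adjusted p = 0.0774) were close to the threshold, with Nrp1-IP wholly below Input for both. DESeq2 and the replicate block called both lower.

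The classes were then set side by side. In DCC-IP over Input, the median log2 fold change was -0.69 over the 89 carriers and 0.16 over all genes tested. It was 0.69 for SLC25, -0.54 for SLC35 and -0.85 for the other families, and leaving out 1 library moved these to 0.42 to 0.77, -1.32 to -0.28 and -1.09 to -0.52. The SLC35 extremes came without DCC-IP replicate 3 and without DCC-IP replicate 2. In Nrp1-IP over DCC-IP the medians were 0.37, 0.32 and 0.28 against -0.27 over all genes, and in Nrp1-IP over Input they were -0.05, -0.41 and 0.04 against 0.06. The carriers' median relative to all genes in DCC-IP over Input was -0.85 with TMM scaling and -0.87 with either RLE scaling or library size alone. It was -0.39 with no filter on low counts, -0.51 without DCC-IP replicate 1, -0.56 without DCC-IP replicate 2 and -0.60 without Input replicate 3. Library size alone moved the median of all genes from 0.16 to 0.48 in that comparison.

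**Figure D3:**
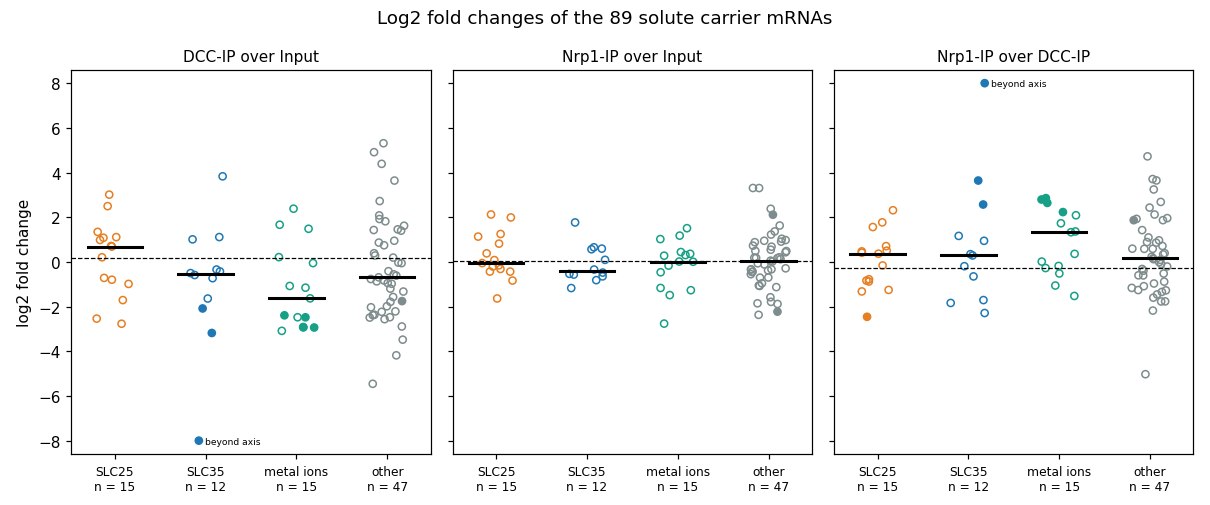
Log2 fold change of each solute carrier mRNA, by class, in the 3 comparisons, with filled points for mRNAs called at an adjusted p under 0.05, a black bar at each class median and a dashed line at the median of all genes tested. The SLC25 median lies above the dashed line in DCC-IP over Input (0.69 against 0.16) and the metal ion median below it (-1.63), and SLC35F1 is drawn at the edge because it had 0 counts in DCC-IP.

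Within SLC35 the calls fell on subfamily F, and the difference between F and the other subfamilies was not tested. The 4 SLC35F mRNAs of the 6 SLC35F symbols that met the count rule were below 0 in DCC-IP over Input (median -2.63, 3 called with SLC35F1) and above 0 in Nrp1-IP over DCC-IP (median 3.11, 3 called with SLC35F1). The other 8 SLC35 mRNAs had medians of -0.38 and -0.42, beside 0.16 and -0.27 over all genes, and none was called by edgeR. At an unadjusted p under 0.05, 1 was higher in DCC-IP over Input (674 of all 6223 genes). In Nrp1-IP over DCC-IP 1 was lower at that threshold (611 of all 6439 genes). DESeq2 called 1 of these 8, SLC35D2, higher in DCC-IP over Input. SLC35B1, which exchanges ATP and ADP across the endoplasmic reticulum membrane, had 576, 360 and 198 counts in Input, 1877, 592 and 464 after DCC pulldown and 323, 445 and 196 after Nrp1 pulldown, with overlapping groups throughout. Its DCC-IP over Input value of 1.01 (SE 0.74, adjusted p = 0.496) rested on DCC-IP replicate 1 and was -0.053 without it. SLC35D1, which brings UDP-glucuronic acid into the endoplasmic reticulum, had 25, 83 and 106 counts in Input, 142, 7 and 69 after DCC pulldown and 64, 121 and 128 after Nrp1 pulldown, without a direction common to the libraries of a group.

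The 15 metal ion carriers had a median of -1.63 in DCC-IP over Input, with 11 of 15 below 0, 5 called lower (3.52% of all genes) and none higher. With the replicate block, 8 of 15 were called lower (7.67% of all genes), adding SLC30A4, SLC30A5 and SLC39A10, and without the MAP1B counts 0 of 15 were. In Nrp1-IP over DCC-IP their median was 1.33 with 4 called higher (2.56% of all genes), and these 4 were also called without the MAP1B counts. In Nrp1-IP over Input their median was 0.02 with none called by edgeR and 3 called lower by DESeq2 (9.04% of all genes). At an unadjusted p under 0.05, 1 was higher and 3 lower there, beside 748 and 657 of all 6501 genes. The 11 zinc carriers together took 0.108 to 0.150% of gene counts in DCC-IP, 0.446 to 0.581% in Nrp1-IP and 0.400 to 0.529% in Input. Without MAP1B in the total, the DCC-IP range was 0.208 to 0.297% and the Input range 0.409 to 0.539%, again without overlap. These 11, taken by family as SLC30 and SLC39, were not uniform, with 3 above 0 and 8 below in DCC-IP over Input. SLC30A10, a manganese exporter of the SLC30 family, had 401, 142 and 185 counts in DCC-IP and 61, 39 and 7 in Input, opposite to SLC30A7. SLC39A13, of the zinc importer family, had 426, 538 and 238 counts in DCC-IP and 82, 161 and 85 in Input. Neither passed the test.

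**Figure D4:**
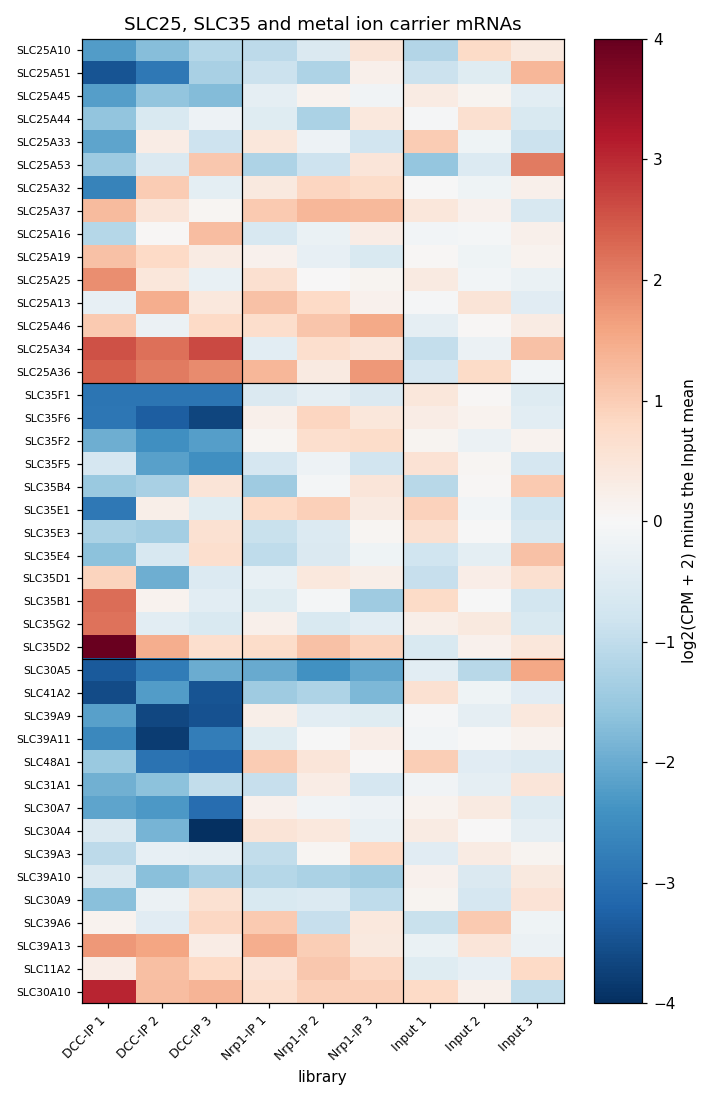
Log2(CPM + 2) minus the Input mean for the 42 SLC25, SLC35 and metal ion carrier mRNAs in the 9 libraries, on a colour scale from -4 to 4. The SLC35F6, SLC35F2, SLC35F1, SLC39A9, SLC39A11, SLC30A7 and SLC48A1 rows are low in the 3 DCC-IP columns and near the Input mean in Nrp1-IP, while SLC25A34 is high in DCC-IP.

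Of the 15 mitochondrial carriers, 9 were above 0 and 6 below in DCC-IP over Input, where 3290 of all 6223 genes were above 0, and their difference from the metal carriers was not tested. None was called by edgeR in that comparison. At an unadjusted p under 0.05, 2 were higher and 2 lower, beside 674 and 693 of all 6223 genes. DESeq2 called SLC25A34 and SLC25A36 higher and SLC25A45 and SLC25A51 lower, and the replicate block gave the same direction for SLC25A34, SLC25A45 and SLC25A51. SLC25A37 (mitoferrin-1), which brings iron into mitochondria, made up 60.6 to 81.4% of SLC25 counts in DCC-IP, 63.9 to 66.1% in Nrp1-IP and 32.8 to 47.1% in Input. It had 5299, 4737 and 2537 counts in Input, 10493, 8709 and 7552 after DCC pulldown and 11056, 13475 and 16408 after Nrp1 pulldown. Nrp1-IP was wholly above Input with a log2 fold change of 1.25 (SE 0.32, adjusted p = 0.0672), and DCC-IP overlapped Input at 0.69 (SE 0.40, adjusted p = 0.371), neither of which passed. DESeq2 and the block called SLC25A37 higher in Nrp1-IP over Input.

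SLC25A34, a mitochondrial carrier of unsettled substrate, had 32, 69 and 199 counts in Input, 596, 654 and 1055 after DCC pulldown and 73, 184 and 197 after Nrp1 pulldown. The 3 DCC-IP libraries were above all others. The log2 fold change in Nrp1-IP over DCC-IP was -2.46 (SE 0.57, adjusted p = 0.0487), which did not pass in any of the 6 fits without 1 library, and in DCC-IP over Input it was 2.5 (SE 0.80, adjusted p = 0.105) or 2.86 with an adjusted p of 0.0278 under the block. An antisense gene, SLC25A34-AS1, overlaps it. SLC25A45 had 5138, 4751 and 3098 counts in Input, 990, 2165 and 2251 after DCC pulldown and 4360, 6359 and 6373 after Nrp1 pulldown, with the lowest CPM in DCC-IP. It missed the threshold at -1.71 in DCC-IP over Input (SE 0.44, adjusted p = 0.0602) and passed under the block (-1.74, adjusted p = 0.0244). In Nrp1-IP over DCC-IP it was 1.56 (SE 0.38, adjusted p = 0.0579), and DESeq2 and the block called it higher. Without the MAP1B counts edgeR also called it higher there, at 1.83 (adjusted p = 0.0306). SLC25A45 overlaps FRMD8. SLC25A51, the mitochondrial NAD carrier, had 250, 356 and 1221 counts in Input, 32, 81 and 333 after DCC pulldown and 346, 265 and 916 after Nrp1 pulldown, so that replicate 3 was the highest in every group. DCC-IP differed from Input by -2.54 on the log2 scale (SE 0.99, adjusted p = 0.176), or -2.74 with an adjusted p of 0.0168 under the block.

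None of the 9 carriers of amino acids and transmitters passed in DCC-IP over Input, and some spread widely between libraries of a group. SLC38A2 (SNAT2), the sodium-coupled glutamine transporter that responds to amino acid shortage, had 334, 204 and 1297 counts in Input, 5432, 1634 and 98533 after DCC pulldown and 387, 300 and 2477 after Nrp1 pulldown. A single library, DCC-IP replicate 3, held 89.1% of its counts, and replicate 3 was the highest in each group. The value for DCC-IP over Input was 5.31 on the log2 scale (SE 1.50, adjusted p = 0.0769), 3.99 with an adjusted p of 0.00539 under the block, and 2.72 (SE 0.93, adjusted p = 0.108) without DCC-IP replicate 3. In Nrp1-IP over DCC-IP it was -5.03 (SE 1.39, adjusted p = 0.0881), and DESeq2 and the block called it lower there. More than 50% of the counts also came from 1 library for SLC35D2, SLC2A1 and SLC3A2 (58.7, 55.9 and 50.8% in DCC-IP replicate 1) and for SLC19A1 and SLC30A5 (53.3 and 51.7% in Input replicate 3).

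SLC3A2, the heavy chain of the CD98 amino acid exchangers, had 3, 3 and 6 counts in Input, 331, 38 and 107 after DCC pulldown and 74, 54 and 35 after Nrp1 pulldown. Both pulldowns lay wholly above Input, where the counts were close to the floor of 3, and the adjusted p was 0.0616 for DCC-IP and 0.0694 for Nrp1-IP. SLC3A2 met the count rule only through the pulldowns and so had to differ from Input, and these values are given as a description. SLC1A5 (ASCT2), a glutamine exchanger, had 49, 80 and 48 counts in Input, 297, 420 and 278 after DCC pulldown and 68, 220 and 182 after Nrp1 pulldown, with DCC-IP wholly above Input at a log2 fold change of 2.08 (SE 0.71, adjusted p = 0.126). SLC18A2 (VMAT2), which fills vesicles with monoamines, had 277, 588 and 260 counts in Input, 43, 184 and 41 after DCC pulldown and 847, 306 and 492 after Nrp1 pulldown. It was lowest in DCC-IP, with -2.48 over Input (SE 0.86, adjusted p = 0.133), -2.76 under the block (adjusted p = 0.0372), and 2.43 in Nrp1-IP over DCC-IP (SE 0.83, adjusted p = 0.166). It overlaps PDZD8 in the RefSeq list. Over the 9 carriers of this class the DCC-IP over Input median was 0.29, with no call by edgeR. At an unadjusted p under 0.05, 3 were higher and 3 lower (674 and 693 of all 6223 genes). DESeq2 called the same numbers (8.21% and 8.37% of all genes).

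The remaining textbook carriers were mixed. SLC16A1 (MCT1), the lactate and pyruvate transporter, had 527, 563 and 2205 counts in Input, 59, 69 and 710 after DCC pulldown and 413, 280 and 604 after Nrp1 pulldown. DCC-IP differed from Input by -2.49 on the log2 scale (SE 1.07, adjusted p = 0.215), or -3.02 with an adjusted p of 0.00708 under the block. SLC2A1 (GLUT1), the basal glucose transporter, had 0, 21 and 8 counts in Input, 371, 48 and 32 after DCC pulldown and 138, 5 and 41 after Nrp1 pulldown, with overlap between groups. The phosphate transporter SLC20A1 had 330, 230 and 580 counts in Input, 880, 723 and 965 after DCC pulldown and 806, 702 and 1203 after Nrp1 pulldown, and its groups overlapped in CPM. The aspartate/glutamate carrier SLC25A13 ranged from 16 to 162 counts and the acetyl-CoA carrier SLC33A1 from 40 to 235, without a call for either. Over the further classes, the DCC-IP over Input medians were 0.47 for inorganic ions and pH (12 mRNAs, 1 called lower) and -0.76 for monocarboxylates, organic ions and bile acids (10 mRNAs). They were -0.06 for the families classed with sugars (7 mRNAs) and -1.20 for vitamins, nucleosides, choline and lipids (9 mRNAs). Classes were assigned by family number, so single members, such as SLC5A5 and SLC5A6 among the sugar families, can carry other substrates.

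Related genes were read from lists to place the carriers. Of 18 genes for mitochondrial import of carrier proteins, 13, 13 and 11 could be tested in DCC-IP over Input, Nrp1-IP over Input and Nrp1-IP over DCC-IP, with medians of -0.45, -0.61 and -0.40. None was called by edgeR. At an unadjusted p under 0.05, 1, 4 and 1 were lower and none higher. Of all genes, 693 of 6223, 657 of 6501 and 611 of 6439 were lower at that threshold. DESeq2 called as many lower, with TOMM22, a receptor of the outer membrane, among them in both comparisons with Input. The replicate block also called TOMM22 lower in DCC-IP over Input. Of 24 genes for synthesis of nucleotide sugars, 10, 11 and 12 could be tested with medians of -0.22, 0.12 and 0.05, none of them called by edgeR. At an unadjusted p under 0.05, 1 was higher and 1 lower in Nrp1-IP over Input (748 and 657 of all 6501 genes) and none in the other comparisons. DESeq2 called PMM2 higher and UGDH lower in Nrp1-IP over Input. Under the replicate block UGDH was called lower in DCC-IP over Input.

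Other membrane transporters gave few calls. Of 37 ABC transporters, 10, 7 and 7 could be tested, and ABCB10, of the inner mitochondrial membrane, was called higher in Nrp1-IP (657, 254 and 419 counts) than in Input (39, 62 and 16 counts), with 38, 489 and 130 counts in DCC-IP. ABCD4 was called higher in DCC-IP over Input under the replicate block. Of 40 symbols for P-type ATPases and their subunits, 16, 14 and 15 could be tested. ATP1B1, the beta subunit of the sodium pump, was called lower than Input (10442, 10589 and 6592 counts) in DCC-IP (2437, 4143 and 3723 counts) and in Nrp1-IP (1418, 1867 and 2152 counts).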

How the data were processed

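RNA was isolated from lysates of SH-SY5Y cells before or after receptor pulldown, reverse-transcribed, amplified by PCR and sequenced. Per the labels, HISAT2 2.1.0 and HTSeq 0.11.0 were used with hg19, and the deposited values are raw read counts per gene symbol for each library, made by the authors without normalization. The strand and overlap settings of HTSeq are not given in the sources used here. The 5 HTSeq summary lines were left out, and the 42785 genes held 29.2 to 31.3% of the reads listed.

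Groups came from the sample titles. For each of the 3 comparisons, edgeR 4.0.16 (R 4.3.3) was run on the counts of all genes in the 6 libraries concerned, with its default expression filter (count minimum 10), TMM scaling, the quasi-likelihood test and Benjamini-Hochberg adjustment over all genes tested. Called means an adjusted p under 0.05. SE is the log2 fold change divided by the square root of F. CPM were scaled by TMM over all 9 libraries. All 89 carriers passed the filter in every comparison, in some cases through the group where they were high. No carrier symbol outside the 89 was called. Reads are PCR products without molecular identifiers, so the floor of 3 counts covers counting error only.

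On simulated counts with the spread estimated here, the fit called 7.5% of 200 genes changed by 3 on the log2 scale in DCC-IP over Input (6223 genes), 21% in Nrp1-IP over Input (6501 genes) and 25% in Nrp1-IP over DCC-IP (6439 genes), so changes of this size can be missed. In the same order 11.8%, 2.33% and 0% of the calls were wrong. These shares come from 1 simulated run with few calls, so they are imprecise. When the simulated spread was low, 97.5% of the changed genes were called in DCC-IP over Input. The difference in MAP1B share between groups was not part of the simulation.

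Whether equal replicate numbers pair libraries was checked by correlating deviations from the group means. For DCC-IP and Input the 3 correlations were 0.117, 0.187 and 0.421, and libraries of different numbers reached 0.136. The block is given beside those results, and in places beside the other comparisons, as an alternative and not as an established pairing. The labels do not say what the numbers stand for.

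The named mRNAs are the called carriers, the 4 with most counts in SLC25, SLC35 and the other families, the textbook carriers that met the rule, and those just inside or outside the rule. SLC35D2, SLC30A10, SLC39A13, SLC35F4, SLC35F3 and the further mRNAs called under the block or by DESeq2 were named after their values were seen. SLC5A5 and SLC5A6 were named for their class. The carriers and gene lists were chosen with earlier results of these data known. Alternatives were DESeq2 1.42.0, RLE or library size scaling, no filter or at least 10 counts in every library, 1 fit of all 9 libraries, the replicate block, removal of MAP1B and leaving out each library. Overlaps between genes were read from the RefSeq list of GRCh38.p14, which matched all 89 symbols and was used for names only. Transcript lengths were not used here.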

Additional observations from a re-analysis of the deposited data

How the results depend on the processing

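The 9 carriers called lower in DCC-IP than Input kept their direction in every alternative that gave a value, but the number of calls varied. Of carriers higher in DCC-IP than Input (0 as reported), DESeq2 called 9, 1 fit of all 9 libraries 4, at least 10 counts in every library 6, library size alone 1, no filter 4 and the replicate block 2. Of carriers lower there (9), DESeq2 called 19, 1 fit of all libraries 15, the replicate block 20 and the fit without MAP1B 2. Leaving out 1 library gave 0 to 1 higher and 0 to 10 lower, with 0 to 250 genes called in all. The calls over all genes varied too. They were 310 of 6223 as reported, 1032 of 6223 by DESeq2 and 715 of 6223 under the replicate block. In 1 fit of all libraries they were 780 of 7628, and with at least 10 counts in every library 805 of 2634. No filter gave 449 of 16144, library size alone 308 of 6223 and removal of MAP1B 73 of 5964.

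In Nrp1-IP over Input (1 higher, 1 lower), DESeq2 gave 5 and 8, RLE scaling 0 and 3, 1 fit of all libraries 0 and 0, at least 10 counts in every library 2 and 6, no filter 3 and 7, and the replicate block 3 and 4, while library size alone gave 6 higher. Leaving out 1 library gave 0 higher and 0 to 5 lower, with 0 to 441 genes called in all. Over all genes the calls were 323 of 6501 as reported, 962 of 6501 by DESeq2 and 350 of 6501 with RLE scaling. In 1 fit of all libraries they were 125 of 7628, and with at least 10 counts in every library 632 of 3460. No filter gave 882 of 16456, the replicate block 556 of 6501 and library size alone 518 of 6501. Library size alone moved the medians to 0.35 for SLC25, -0.036 for SLC35 and 0.42 for the other families, beside 0.44 for all genes, and turned SLC39A9 from -0.17 to 0.22. The replicate correlations were 0.215, -0.0043 and 0.364 here, and the numbers were not taken as pairs. In Nrp1-IP over DCC-IP they were 0.0989, 0.113 and 0.361, against at most 0.0986 for different numbers. The numbers were not taken as pairs there either, although these values are close to those of DCC-IP and Input.

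In Nrp1-IP over DCC-IP (8 higher, 1 lower), DESeq2 gave 13 and 2, no filter 13 higher, the replicate block 12 and 2, and RLE scaling, 1 fit of all libraries, library size alone and the fit without MAP1B each gave 0 lower. Leaving out 1 library gave 3 to 11 higher and 0 to 1 lower, with 74 to 346 genes called in all. Over all genes the calls were 235 of 6439 as reported, 696 of 6439 by DESeq2 and 369 of 6439 under the replicate block. No filter gave 484 of 15766, RLE scaling 236 of 6439 and library size alone 254 of 6439. In 1 fit of all libraries they were 278 of 7628, and without MAP1B 273 of 6343. The SLC25 median was -0.53 with at least 10 counts in every library, and the median of the other families was 0.75 under the block.

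Without 1 library, the SLC35 median ranged from -0.41 to 0.078 in Nrp1-IP over Input and from -0.10 to 1.32 in Nrp1-IP over DCC-IP, and that of the other families from 0.27 to 1.01 in Nrp1-IP over DCC-IP. SLC35B1 in DCC-IP over Input ranged from -0.053 (without DCC-IP replicate 1) to 1.95. The carrier share in DCC-IP was 1.72% with MAP1B removed, and without SLC35F6, SLC35F2 and SLC38A2 the shares were 1.19% in Nrp1-IP and 0.959% in Input. The cause of these shifts was not tested. Over the single mRNAs and the other settings, 488 values kept their direction and side of the threshold, 64 gained a call, 86 lost one and 2 turned direction. Low counts limit SLC35F1 (0 counts in DCC-IP) and SLC3A2 (3, 3 and 6 counts in Input), and the calls that include SLC35F1 are fewer by 1 without it.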
